A study of Mus musculus with 51 samples.

Results

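The 10 genes described here are the core of the DNA methylation machinery: the writers *Dnmt1*, *Dnmt3a* and *Dnmt3b*, the cofactors *Dnmt3l* and *Uhrf1*, the erasers *Tet1*, *Tet2* and *Tet3*, and the imprint guardians *Zfp57* and *Trim28*. They were chosen by name for their role, with earlier results of these data known, from the 35591 genes with deposited counts, and all 10 passed the filter on low counts. The data are RNA-seq of polyA RNA from mouse embryonic stem cell (mESC) lines, made to ask what is lost when the egg supplies no SMCHD1, a chromatin protein needed for X inactivation, imprinting and *Hox* silencing. Of the 51 libraries of the series, the 6 from undifferentiated lines were compared, 3 *Smchd1* wt and 3 *Smchd1* matΔ. All 6 lines were male C57BL/6/Cast F1 lines in the pluripotent state, derived from separate blastocysts and kept in 2i + LIF medium, which combines inhibitors of MEK and GSK3 with leukaemia inhibitory factor. The *Smchd1* wt lines have the genotype *Smchd1*[fl/+], with an intact floxed allele. The *Smchd1* matΔ lines have the genotype *Smchd1*[del/+], in which *Zp3*-Cre, active in the growing oocyte, had deleted the allele inherited from the mother; the labels name this Cre for both groups. As a model this has a limit: *Smchd1* matΔ cells keep the intact paternal Cast allele, so they lacked the maternal protein at first and were heterozygous when sequenced.

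A methylated CpG is copied at each cell division by DNMT1, which UHRF1 brings to the newly replicated strand. New methylation is set by DNMT3A and DNMT3B, helped in early embryos and germ cells by DNMT3L, which has no catalytic activity of its own. TET enzymes oxidise methylcytosine as a first step in its removal, and ZFP57 with TRIM28 holds methylation at imprinted regions while the rest of the genome loses it. Cells in 2i + LIF are known for low genomic methylation and for low levels of the de novo machinery. Methylation itself was not analysed here, so every value below is an RNA level.

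*Smchd1* was counted at 107, 124 and 119 CPM (counts scaled to a common library size with edgeR's TMM method) in *Smchd1* wt lines 1, 2 and 3, and at 63.7, 72.0 and 90.7 CPM in *Smchd1* matΔ lines 1, 2 and 3. The groups did not overlap, in the direction of the labelled genotypes, as did those of 4.68% of all genes tested. The log2 fold change of *Smchd1* was -0.63 (unadjusted p = 0.0023, adjusted p = 0.992 by edgeR's quasi-likelihood test). The deleted gene itself was therefore not called with these 6 lines. Pluripotency markers were high in every line: *Pou5f1* lay between 735 and 1060 CPM, *Nanog* between 681 and 895 and *Sox2* between 358 and 473. Markers of primed epiblast were mixed. *Fgf5* stayed between 0.287 and 1.55 CPM, *Pou3f1* between 1.23 and 4.08 and *Fgf15* between 0.063 and 0.40. *Otx2*, however, lay between 25.4 and 36.7 CPM and *Lef1* between 51.8 and 90.8. The libraries held 27526359 to 126716460 counts. Those of line 3 stood apart in both genotypes: their log2 CPM correlated with lines 1 and 2 at r between 0.982 and 0.989 across genes, against 0.996 to 0.998 among lines 1 and 2. Log2 fold changes without both line 3 libraries are also given for each gene of the methylation machinery listed above and for *Prdm14*. For the other pathway and marker genes named below, levels and p-values are from all 6 lines only. Some of these, such as *Cdca7*, *Mat2b*, *Tbx3* and *T*, had log2 fold changes nearer to 0 without both line 3 libraries.

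None of the 10 genes passed the test between genotypes, edgeR's quasi-likelihood test with Benjamini-Hochberg adjustment over all 17696 genes tested, and the adjusted p was 0.992 for each. No other gene passed it either (0 of 17696, percent called 0), while 397 genes had an unadjusted p under 0.05, which is 2.24% of those tested, 1.17% lower and 1.07% higher in *Smchd1* matΔ. On the same counts DESeq2 called 0 genes, and edgeR's exact and likelihood ratio tests called 2 each, none of them among the 10. Among the 10 genes, 3 had an unadjusted p under 0.05: *Dnmt3l*, *Dnmt3b* and *Tet2*. With the line number as a block in the fit, 4.13% of all genes had an unadjusted p under 0.05, and without both line 3 libraries 4.72%, with these 3 of the 10 genes in each case. The same 3 were the genes whose groups did not overlap, with all *Smchd1* matΔ lines below all *Smchd1* wt lines for *Dnmt3l* and *Dnmt3b*, and above them for *Tet2*. Groups failed to overlap for 9.38% of all genes tested, 4.68% lower and 4.70% higher in *Smchd1* matΔ. With 3 lines in each group, the smallest two-sided p that exact permutation allows is 0.1. The median log2 fold change was -0.07 over the 10 genes and -0.01 over all genes tested.

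**Figure D1:**
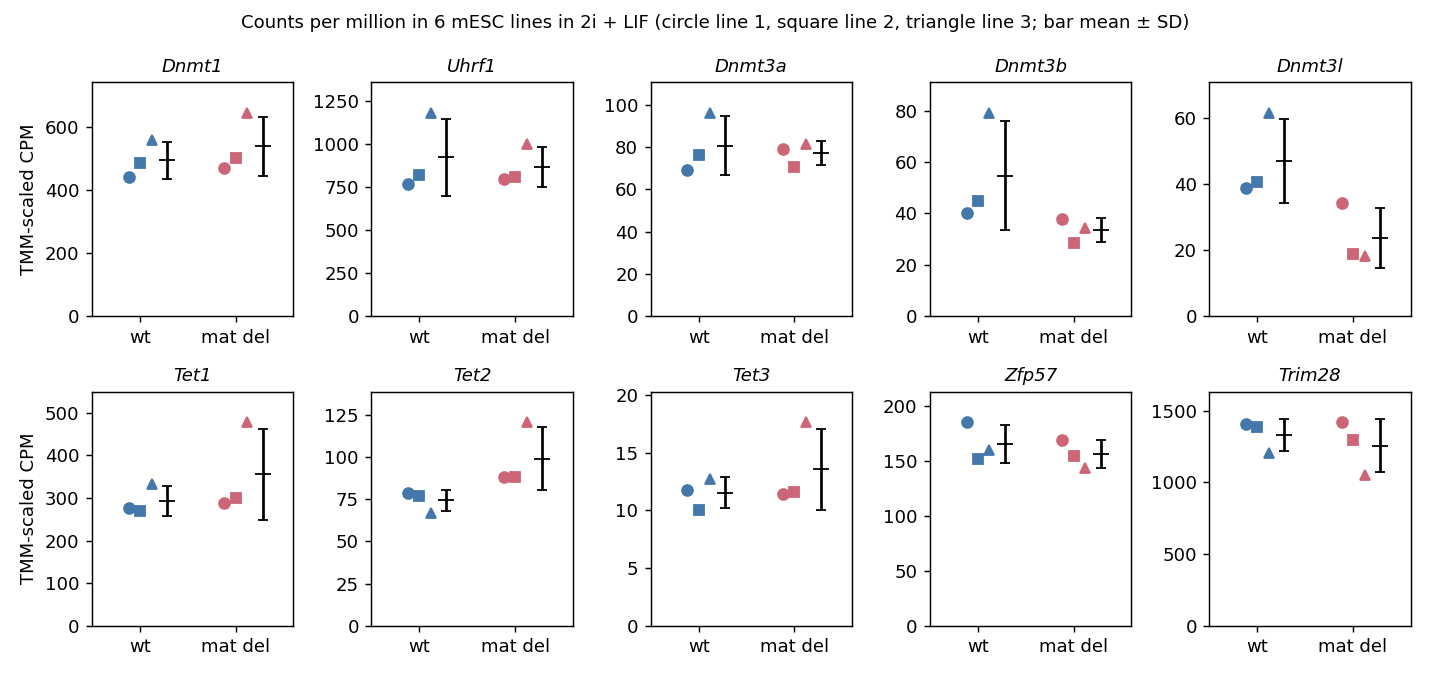
TMM-scaled CPM (y axis, from 0, with its own scale for each gene) of the 10 genes in 3 wt (blue) and 3 mat del (red) lines. Symbols mark the line number, and bars give the mean ± SD (n = 3). The groups do not overlap for *Dnmt3b*, *Dnmt3l* and *Tet2* and overlap for the other 7 genes, and the triangle of line 3 is often the highest or lowest point.

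The sequences shown are those upstream of the start sites of the 3 genes whose groups did not overlap, since CpG density is the feature of a promoter that this machinery acts on. Each line gives the 250 bases before the first start site in RefSeq (GRCm38.p6), 5′ to 3′ on the gene's own strand, with every CG dinucleotide in capitals. They lie at chr2:153649199-153649448 (plus strand) for *Dnmt3b*, chr10:78042037-78042286 (plus strand) for *Dnmt3l* and chr3:133544391-133544640 (minus strand) for *Tet2*. The gene spans of the count data, given below, begin earlier than RefSeq for *Dnmt3l* and *Tet2*. Their sequences therefore lie inside those spans, and only that of *Dnmt3b* lies before its span.
Dnmt3b: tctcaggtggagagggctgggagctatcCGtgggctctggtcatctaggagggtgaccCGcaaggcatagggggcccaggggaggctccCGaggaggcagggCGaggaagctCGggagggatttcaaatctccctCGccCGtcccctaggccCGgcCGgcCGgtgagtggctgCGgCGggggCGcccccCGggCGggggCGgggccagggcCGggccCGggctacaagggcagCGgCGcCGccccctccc
Dnmt3l: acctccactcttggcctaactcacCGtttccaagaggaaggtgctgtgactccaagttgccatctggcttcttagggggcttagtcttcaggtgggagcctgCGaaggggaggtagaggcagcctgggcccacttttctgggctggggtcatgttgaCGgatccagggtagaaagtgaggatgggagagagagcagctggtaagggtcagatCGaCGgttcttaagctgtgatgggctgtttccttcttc
Tet2: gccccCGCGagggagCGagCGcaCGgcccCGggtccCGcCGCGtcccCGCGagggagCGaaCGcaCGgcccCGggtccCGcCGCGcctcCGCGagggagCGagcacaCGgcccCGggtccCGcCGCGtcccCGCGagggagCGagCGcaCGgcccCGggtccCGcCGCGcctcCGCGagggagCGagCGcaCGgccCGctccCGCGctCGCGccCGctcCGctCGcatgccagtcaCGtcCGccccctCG
The *Dnmt3b* and *Tet2* sequences hold 21 and 51 CGs, while that of *Dnmt3l* holds 5. Over the 32851 RefSeq promoters the median was 6 CGs, with quartiles of 2 and 16, and 92.1% held at least 1. CG is its own reverse complement, so both strands give the same count. *Tet2* had more CGs than 99.9% of all promoters. The 2 genes that were lower in every *Smchd1* matΔ line thus have upstream sequences of unlike CG content. The 2 further start sites that RefSeq gives for *Dnmt3l* have 4 and 3 CGs. For the other genes, the CG counts over their start sites ranged from 2 to 26 for *Dnmt1*, from 15 to 40 for *Dnmt3a*, from 10 to 30 for *Uhrf1* and from 3 to 7 for *Zfp57*, with 15 for *Tet1* and 17 for both *Tet3* and *Trim28*.

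*Dnmt1*, the maintenance methyltransferase (chromosome 9, 20907209 to 20959888, minus strand, GRCm38), was counted at 442, 487 and 559 CPM in *Smchd1* wt lines and at 472, 502 and 646 in *Smchd1* matΔ lines. In both genotypes line 3 was the highest, and the ranges overlapped. Its log2 fold change, *Smchd1* matΔ minus *Smchd1* wt, was 0.12 (95% confidence interval -0.23 to 0.47). *Uhrf1*, the DNMT1 recruiter (chromosome 17, 56303321 to 56323486, plus strand), had 769, 820 and 1180 CPM in *Smchd1* wt lines and 795, 805 and 997 in *Smchd1* matΔ lines. Line 3 was again the highest of each genotype, and the values of lines 1 and 2 were interleaved between genotypes. The difference was -0.09 (interval -0.51 to 0.33) on the log2 scale. Without both line 3 libraries the log2 fold changes were 0.07 for *Dnmt1* and 0.01 for *Uhrf1*.

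The de novo group held the 2 largest log2 fold changes of the 10 genes in size. *Dnmt3l*, the catalytically inactive cofactor (chromosome 10, 78041947 to 78063622, plus strand), was counted at 38.8, 40.6 and 61.5 CPM in *Smchd1* wt lines and at 34.1, 18.8 and 18.2 in *Smchd1* matΔ lines. *Smchd1* matΔ line 1 lay close under the lowest *Smchd1* wt line, whereas lines 2 and 3 lay far below it. The means were 46.9 ± 12.6 and 23.7 ± 8.99 CPM (SD, n = 3 lines each), so *Smchd1* matΔ lines held 50.5% of the *Smchd1* wt mean. Its log2 fold change was -0.98 ± 0.28 (SE, interval -1.63 to -0.33, unadjusted p = 0.0081 and adjusted p = 0.992 by edgeR's quasi-likelihood test). By unadjusted p it ranked 31 of 17696 genes. Without both line 3 libraries the log2 fold change was -0.58 (unadjusted p = 0.013 in the same edgeR test).

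*Dnmt3b*, the de novo methyltransferase most tied to early embryonic cells (chromosome 2, 153649450 to 153687730, plus strand), had 40.1, 44.8 and 79.1 CPM in *Smchd1* wt lines and 37.9, 28.7 and 34.5 in *Smchd1* matΔ lines. The groups were separated by the small gap between *Smchd1* wt line 1 and *Smchd1* matΔ line 1, and *Smchd1* wt line 3 stood above all others. The means were 54.7 ± 21.3 and 33.7 ± 4.66 CPM (SD, n = 3 each), or 61.6% of *Smchd1* wt. The log2 fold change was -0.70 ± 0.25 (SE, interval -1.28 to -0.12, unadjusted p = 0.025 and adjusted p = 0.992 in edgeR). Without *Smchd1* wt line 3 it was -0.33 (unadjusted p = 0.061 in edgeR), and without both line 3 libraries -0.35 (unadjusted p = 0.014).

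*Dnmt3a*, the other de novo methyltransferase (chromosome 12, 3806007 to 3914443, plus strand), did not share this pattern of separation. It was counted at 69.1, 76.3 and 96.1 CPM in *Smchd1* wt lines and at 79.1, 70.5 and 81.3 in *Smchd1* matΔ lines, and the ranges overlapped throughout. The log2 fold change was -0.07 (interval -0.39 to 0.25). Because a ratio of raw counts within a line does not depend on library scaling, the other 2 genes were also set against *Dnmt3a*. There were 0.561, 0.532 and 0.639 *Dnmt3l* counts per *Dnmt3a* count in *Smchd1* wt lines and 0.431, 0.267 and 0.224 in *Smchd1* matΔ lines. The *Dnmt3b* to *Dnmt3a* ratio was 0.580, 0.587 and 0.823 in *Smchd1* wt lines and 0.479, 0.407 and 0.425 in *Smchd1* matΔ lines. Both ratios were lower in every *Smchd1* matΔ line than in any *Smchd1* wt line. The *Dnmt3l* to *Dnmt3b* ratio overlapped, at 0.777 to 0.968 against 0.528 to 0.900. These gene pairs were chosen after the values were seen and were not tested. Since *Dnmt3a* hardly differed between genotypes, the 2 lower ratios restate the separation of *Dnmt3l* and *Dnmt3b* and are not a further result.

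**Figure D2:**
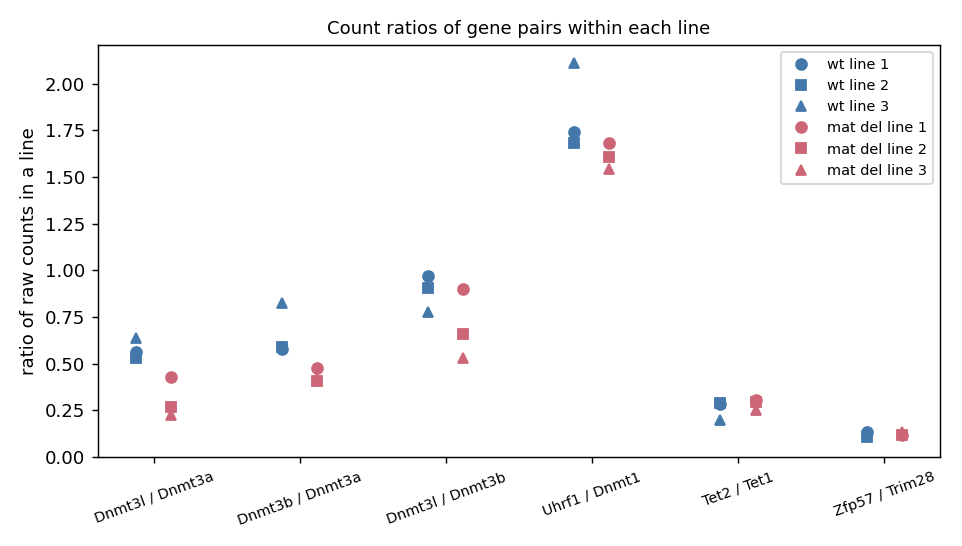
Ratio of raw counts of 2 genes in each line (y axis, from 0, no unit) for 6 gene pairs, with wt lines in blue and mat del lines in red. The *Dnmt3l* / *Dnmt3a* and *Dnmt3b* / *Dnmt3a* ratios of the mat del lines, at most 0.431 and 0.479, lie below those of all wt lines, and the other 4 ratios overlap between genotypes.

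The TET genes lay higher on average in *Smchd1* matΔ lines, but only *Tet2* was separated. *Tet2*, a methylcytosine dioxygenase without the CXXC domain of its relatives (chromosome 3, 133463679 to 133545139, minus strand), had 78.8, 77.1 and 66.8 CPM in *Smchd1* wt lines and 88.1, 88.2 and 121 in *Smchd1* matΔ lines. The 2 line 3 libraries were the lowest of one genotype and the highest of the other. The means were 74.2 ± 6.46 and 99.0 ± 18.8 CPM (SD, n = 3 each), and *Smchd1* matΔ was at 133% of *Smchd1* wt. Its log2 fold change was 0.41 ± 0.15 (SE, interval 0.07 to 0.75, unadjusted p = 0.023 and adjusted p = 0.992 in edgeR). It was 0.25 without *Smchd1* matΔ line 3 (unadjusted p = 0.032) and 0.18 without both line 3 libraries (unadjusted p = 0.029 in edgeR).

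*Tet1*, the most abundant TET of mESCs (chromosome 10, 62804570 to 62908996, minus strand), was counted at 276, 268 and 333 CPM in *Smchd1* wt lines and at 289, 299 and 478 in *Smchd1* matΔ lines. Line 3 was the highest of each genotype, and *Smchd1* wt line 3 exceeded *Smchd1* matΔ lines 1 and 2. The log2 fold change of 0.28 (interval -0.19 to 0.75) was 0.01 without *Smchd1* matΔ line 3, 0.38 without *Smchd1* wt line 3 and 0.11 without both. Lines 1 and 2 alone did not overlap for *Tet1*, as for 34.4% of all genes tested when 2 lines were set against 2. *Tet3*, best known for the zygote (chromosome 6, 83362373 to 83459084, minus strand), had 11.7, 10.1 and 12.7 CPM in *Smchd1* wt lines and 11.4, 11.6 and 17.6 in *Smchd1* matΔ lines. Its log2 fold change of 0.23 (interval -0.24 to 0.71) was 0.00 without *Smchd1* matΔ line 3, 0.31 without *Smchd1* wt line 3 and 0.09 without both. The size of both differences thus moved with the line 3 libraries of either genotype. The *Tet2* to *Tet1* count ratio was 0.201 to 0.287 in *Smchd1* wt lines and 0.252 to 0.305 in *Smchd1* matΔ lines, which overlap.

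The imprint guardians overlapped between genotypes. *Zfp57*, a KRAB zinc finger protein that binds methylated imprinted regions (chromosome 17, 37001163 to 37010635, plus strand), had 185, 151 and 159 CPM in *Smchd1* wt lines and 169, 155 and 144 in *Smchd1* matΔ lines. Its log2 fold change was -0.08 (interval -0.35 to 0.18). *Trim28*, the corepressor that KRAB zinc finger proteins recruit (chromosome 7, 12999114 to 13031035, plus strand), had 1405, 1387 and 1205 CPM in *Smchd1* wt lines and 1420, 1297 and 1055 in *Smchd1* matΔ lines. Line 3 was the lowest in both genotypes, opposite to *Dnmt1*, *Uhrf1* and *Tet1*. The log2 fold change was -0.08 (interval -0.40 to 0.24). Without both line 3 libraries the values were -0.05 for *Zfp57* and -0.04 for *Trim28*.

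**Figure D3:**
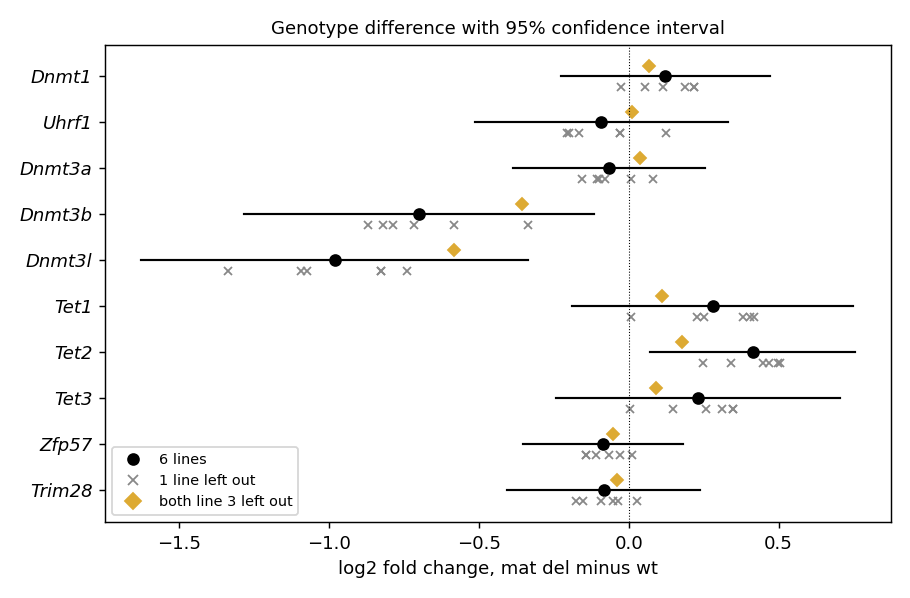
Log2 fold change, mat del minus wt (x axis), of each gene (y axis) from all 6 lines (black point) with its 95% confidence interval, with 1 line left out (grey crosses) and without both line 3 libraries (yellow diamonds). The intervals of *Dnmt3b*, *Dnmt3l* and *Tet2* exclude 0 before adjustment, and their diamonds, at -0.35, -0.58 and 0.18, lie nearer to 0 than the black points.

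Per kilobase of exon the 10 genes spanned from 311 CPM per kb for *Trim28* to 0.750 for *Tet3* (means of 6 lines). *Uhrf1* came second at 210, followed by *Dnmt1* at 70.2, *Zfp57* at 42.4 and *Tet1* at 20.95 CPM per kb. The maintenance pair and the guardians thus stood above all de novo genes and erasers. Below them lay *Dnmt3l* at 11.8, *Dnmt3b* at 8.65, *Tet2* at 5.13 and *Dnmt3a* at 4.73 CPM per kb. Of the 9 neighbouring pairs in this order, 6 had the same order in all 6 lines. The exceptions were *Dnmt3l* over *Dnmt3b* (5 of 6 lines), *Dnmt3b* over *Tet2* (5 of 6) and *Tet2* over *Dnmt3a* (4 of 6), so the order within each of these 3 pairs did not hold beyond the spread of the lines. Genes further apart in the order can still be told apart, since *Dnmt3l*, at 6.10 CPM per kb or more, lay above *Dnmt3a*, at 5.77 or less, in every line. *Tet1* exceeded *Dnmt3l* in every line, but by a ratio as low as 1.05 and as high as 5.07. The ranks were identical when the longest transcript replaced all exons as the length.

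**Figure D4:**
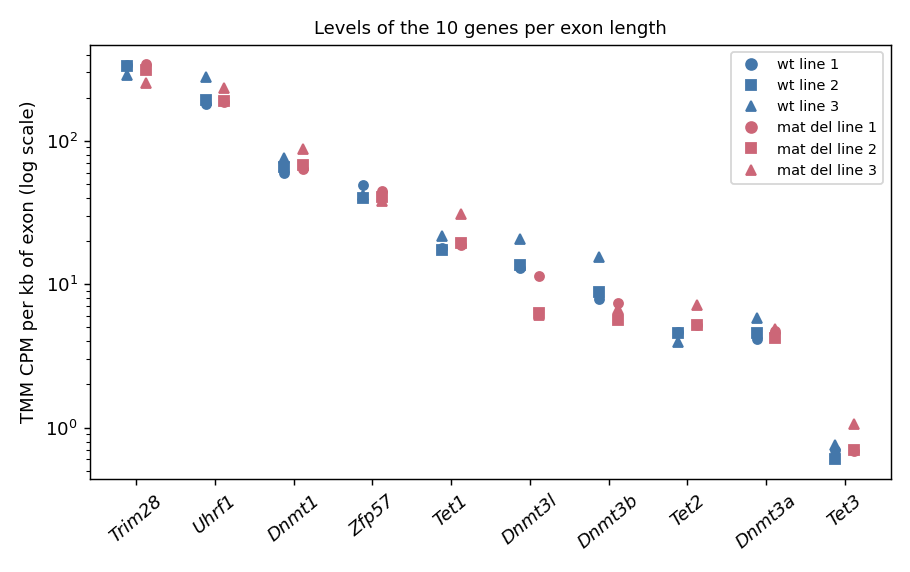
TMM-scaled CPM per kb of exon (y axis, log scale) for the 10 genes (x axis, ordered by mean) in wt (blue) and mat del (red) lines, with a symbol for each line number. The order runs from *Trim28* (mean 311) to *Tet3* (mean 0.750), and the points overlap between *Dnmt3l* and *Dnmt3b*, between *Dnmt3b* and *Tet2* and between *Tet2* and *Dnmt3a*.

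Over all 6 lines, *Dnmt3l* and *Dnmt3b* varied most among the 10 genes, and the other de novo gene, *Dnmt3a*, did not. This spread includes the difference between genotypes. The SD of log2(CPM + 0.5) over the 6 lines was 0.67 for *Dnmt3l* and 0.50 for *Dnmt3b*, while the median of tested genes of like level was 0.17 and 0.16. For *Dnmt3a* the SD was 0.17, beside a median of 0.15. Within a genotype, *Dnmt3l* had an SD of 0.36 among *Smchd1* wt and 0.50 among *Smchd1* matΔ lines, *Dnmt3b* 0.52 and 0.20, and *Dnmt3a* 0.24 and 0.11. Among *Smchd1* matΔ lines *Dnmt3b* thus varied less than *Tet1* (0.41) and *Tet3* (0.34). Over the 6 lines the SD was lowest for *Zfp57* (0.13) and *Trim28* (0.167), the latter close to *Dnmt3a* (0.170). These were the only 2 of the 10 whose SD lay below the median of genes of like level. With library total scaling 10 of the 10 lay above it. Among *Smchd1* matΔ lines alone, *Trim28* had an SD of 0.22. Among 11416 genes with a mean of at least 4 CPM, the profiles most like that of *Dnmt3l* over the 6 lines were those of *Gsta3* (r = 0.981), *Dhrs4* (0.980) and *Dpp7* (0.9749). For *Dnmt3b* they were *Akr1b3* (r = 0.997), *Hyal2* (0.992) and *Slc25a35* (0.988). These 6 points share the line 3 libraries and the library scaling, and the values are a description only.

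Of the 10 genes, 2 share their span with a gene of more than a few counts. *Aire*, on the opposite strand, overlaps the 5′ end of *Dnmt3l* by 67 of its 2988 exonic bases, and whether the counting used strand is not given in the sources used here. *Aire* had 2340, 10944 and 2779 counts in *Smchd1* wt lines and 9472, 9080 and 1396 in *Smchd1* matΔ lines, more than *Dnmt3l* except in *Smchd1* wt line 3. The log2 fold change of *Aire* was -0.16 (interval -0.79 to 0.47). Its part in the *Dnmt3l* values was not tested. *Zbtb45* lies inside the span of *Trim28* with no shared exon, and the other overlapping genes had at most 8 counts in any line.

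The other genes of the pathway were not called either. Of 83 further genes in 7 lists, 81 were tested, and none passed edgeR's test. An unadjusted p under 0.05 was found for 2 of the 81 genes, both higher in *Smchd1* matΔ. Over all genes tested the share was 2.24%, with 1.07% higher and 1.17% lower. Groups did not overlap for 7 of the 81 genes, 8.64%, with 3 higher and 4 lower, beside 9.38% of all genes. The median log2 fold change of the 81 was 0.04.

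By role, the 10 partners of maintenance held 1 gene without overlap, lower in *Smchd1* matΔ, and the lowest p was that of *Cdca7*, which targets the remodeller HELLS (270 ± 34.7 and 233 ± 10.7 CPM, SD, n = 3 each, unadjusted p = 0.11 in edgeR). The 12 regulators of de novo methylation held 3 genes without overlap, 2 higher and 1 lower, beside 9.38% of all genes tested. The lowest p among them was that of *Prdm14*, and this repressor of the *Dnmt3* genes in naive cells had 68.9, 71.2 and 50.9 CPM in *Smchd1* wt lines and 74.3, 82.4 and 87.0 in *Smchd1* matΔ lines. These groups did not overlap, and its log2 fold change was 0.35 ± 0.15 (SE, unadjusted p = 0.042, adjusted p = 0.992 in edgeR). *Smchd1* wt line 3 was the lowest value, and without both line 3 libraries the log2 fold change of *Prdm14* was 0.16 (unadjusted p = 0.065 in edgeR). Of 13 TET and base excision partners tested, *Apex1*, the abasic site endonuclease, had the lowest p (205 ± 11.5 and 175 ± 11.7 CPM, unadjusted p = 0.052 in edgeR, n = 3 each). It was lower in every *Smchd1* matΔ line. Of 9 methyl-CpG readers, *Mbd6* was higher in every *Smchd1* matΔ line, at 40.01 to 43.2 against 27.5 to 36.3 CPM (unadjusted p = 0.025, adjusted p = 0.992 in edgeR). The TRIM28 partners (12 genes) had no gene without overlap, and *Zfp809* had the lowest unadjusted p in edgeR, 0.18. Of 8 genes of methyl donor supply the lowest p was that of *Mat2b*, a regulatory subunit of S-adenosylmethionine synthesis (unadjusted p = 0.078 in edgeR). *Mat2b* was also lower in every *Smchd1* matΔ line. The last list held germline genes that promoter methylation is known to silence. Of these, 17 of 18 were tested, none was without overlap, and *Tdrkh* had the lowest unadjusted p in edgeR, 0.14. The median log2 fold change of the 17 was 0.08. Levels ran from *Tdrd1*, at 0.252 to 0.553 CPM, to *Dazl*, at 253 to 673 CPM, and are not a measure of methylation.

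No marker of pluripotency or of another cell type passed edgeR's test. Of 10 naive markers, *Klf4* and *Tbx3* were without overlap, both higher in *Smchd1* matΔ, as were 4.70% of all genes tested, and *Klf4* was higher in every *Smchd1* matΔ line (117 ± 9.21 and 145 ± 0.799 CPM, SD, n = 3 each, unadjusted p = 0.013, adjusted p = 0.992 in edgeR). The remaining naive markers overlapped between genotypes, and the median log2 fold change of the 10 was 0.01, so the list as a whole was not shifted. The summed level of the 5 primed epiblast markers was 90.3 to 117 CPM (library total scaling) in *Smchd1* wt and 93.6 to 111 in *Smchd1* matΔ lines, which overlap, and none of the 5 was without overlap. Summed primitive endoderm markers lay between 9.15 and 11.5 CPM in all lines, and summed fibroblast markers between 1.55 and 6.17, the highest in *Smchd1* wt line 3, with 2 of the 6 fibroblast genes above the filter on low counts. Summed trophectoderm markers ran from 101 to 155 CPM in *Smchd1* wt and from 138 to 160 in *Smchd1* matΔ lines. The summed level of the 5 early mesoderm and neural markers did not overlap, at 11.1, 11.8 and 9.93 CPM in *Smchd1* wt lines and 13.4, 14.7 and 12.7 in *Smchd1* matΔ lines. Of the 4 tested, *T* and *Sox1* were higher in every *Smchd1* matΔ line, beside the same 4.70% of all genes, and the median log2 fold change of the 4 was 0.40. The part of these markers in the values of *Dnmt3l*, *Dnmt3b* and *Tet2* was not tested. In bulk RNA, fewer cells expressing a gene and less RNA per cell cannot be told apart.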

How the data were processed

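RNA from 6 mESC lines in 2i + LIF medium was sequenced with paired-end reads. The authors trimmed reads with Trim Galore 0.4.4, mapped them to GRCm38.p6 with HISAT2 2.0.5 and counted them in SeqMonk. The deposited values used are raw read counts per gene, not normalized. Kits were stranded or non-stranded, and the counting's strand setting is not given in the sources used here. Log2 values that the authors deposited for selected factors served only to check column names, and those for *Hox* genes were not used. Groups and line numbers came from the labels, and the mapping of reads could not be repeated. p-values measure the spread between lines.

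For the analysis of counts, edgeR 4.0.16 (R 4.3.3) was used: default expression filter (17696 of 35591 genes), TMM scaling, quasi-likelihood test of genotype, Benjamini-Hochberg adjustment at 0.05. The study used edgeR within SeqMonk, without naming the test. Intervals are at 95%. Lengths are unions of GENCODE M21 exons. Total counts per library, 27526359 to 126716460, give the 10 genes at least 326 counts in every line, so for them the 3 lines per genotype limit precision; markers and overlapping genes near 0 CPM rest on few counts. Alternatives were RLE and library total scaling, 2 other filters, DESeq2 1.42.0, 2 other edgeR tests, the line number as a block and each line left out. Leaving out both line 3 libraries was added after seeing the data. The labels number the lines 1 to 3 in each genotype. Deviations from the genotype means correlated between same-numbered lines at 0.28, 0.42 and 0.47 across genes. *Smchd1* wt line 1 and *Smchd1* matΔ line 2 correlated at 0.41, and *Smchd1* wt line 2 and *Smchd1* matΔ line 1 at 0.13. Line 3 of either genotype correlated negatively with lines 1 and 2 of the other. Deviations from a genotype mean cancel out over its lines, so these negative signs follow in part from the calculation. Of the 6 libraries, 5 correlated best with the library of their own number. In log2 CPM the line 3 libraries correlated with each other at r = 0.986. Setting line 3 apart rests on the log2 CPM correlations in Results, and the values do not show that lines 1 and 2 are paired by number. The main fit did not pair the lines.

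The genes and lists were chosen with earlier results of these data known. Other genes were named by a rule: *Smchd1*, the lowest p in each pathway list, 2 or 3 defining markers, the 3 profiles most like those of the 2 most variable members, and overlapping genes. *Klf4*, *Tbx3*, *T*, *Sox1*, *Otx2*, *Lef1*, *Pou3f1*, *Fgf15*, *Dazl*, *Tdrd1*, *Gemin5*, *Magel2* and *Xlr3c* were named after their values were seen. Figures were drawn with matplotlib 3.10.9 in Python 3.11.15.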

Additional observations from a re-analysis of the deposited data

Results flagged for a closer look

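The 45 libraries of the differentiation time course entered none of the comparisons above, and the names of their count columns are uncertain: only 7 of 45 columns were most like the log2 values deposited under their own name. The genes' levels were therefore taken over these columns without regard to day or genotype, scaled by library total, in the 44 columns that hold counts on every autosome. Column totals ran from 281284 to 103267407 counts, and 3 counts in the smallest column equal 10.7 CPM, a limit that covers counting error only.

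All but 2 of the 10 genes exceeded their highest *Smchd1* wt level in 2i + LIF in some of these columns. This was most frequent in the de novo group and *Tet3*. *Dnmt3b* exceeded 77.5 CPM, its highest *Smchd1* wt line, in 42 of 44 columns and reached 1649 CPM. *Dnmt3a* exceeded 94.1 CPM in 39 of 44 columns, with a highest value of 888. *Dnmt3l* was above 60.2 CPM in 31 columns, and its values ran from 13.1 to 1485 CPM. *Tet3* was above 12.5 CPM in 42 columns, with a median of 35.0 CPM. The other erasers and the guardians exceeded their *Smchd1* wt lines less often by count, *Tet1* in 17 columns, *Tet2* in 11, *Trim28* in 8 and *Zfp57* in 6. *Dnmt1* and *Uhrf1* were in 0 of 44 columns above any line in 2i + LIF, at up to 375 CPM against at least 446 for *Dnmt1* and up to 488 against at least 776 for *Uhrf1*. By their labels most of these columns are cells under differentiation, and several columns come from the same line, so the columns are not independent. The time course differs from the 2i + LIF lines in differentiation, medium and library, which cannot be told apart here, and no difference was tested.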

How the results depend on the processing

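None of the 10 genes and none of the 81 pathway genes passed the adjusted threshold in any of the 15 other settings. Over all genes the count was 2 with edgeR's exact test and 2 with its likelihood ratio test (*Gemin5* and *Magel2* in both), 3 without both line 3 libraries (*Gemin5*, *Smchd1*, *Xlr3c*) and 0 in the other settings. With the line number as a replicate block, 730 genes (4.13%) had an unadjusted p under 0.05 against 397 without it; the block gave 0 calls after adjustment and changed no other call. The log2 fold changes of all 10 genes kept their sign under other scalings, filters, tests and the block. Leaving out 1 line at a time gave -0.027 to 0.22 for *Dnmt1*, -0.16 to 0.080 for *Dnmt3a*, -0.21 to 0.12 for *Uhrf1*, -0.14 to 0.012 for *Zfp57* and -0.18 to 0.028 for *Trim28*, so the direction of these 5 was not fixed, and without both line 3 libraries *Dnmt3a* was at 0.038 and *Uhrf1* at 0.011. The range was -0.87 to -0.33 for *Dnmt3b*, -1.34 to -0.74 for *Dnmt3l*, 0.25 to 0.50 for *Tet2*, 0.01 to 0.42 for *Tet1* and 0.00 to 0.35 for *Tet3*. The unadjusted p stayed under 0.05 in all 15 settings for *Dnmt3l*, in 13 for *Dnmt3b* and in 13 for *Tet2*. The SD over lines exceeded the median of like genes for 8 genes, and for 10 under library total scaling. The causes were not tested.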

Other observations

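One time course column, labelled mat del day 4, line 1, replicate 1, holds counts on chromosomes 1 to 8 and 0 on the other 11 autosomes. As a result, 6 of the 10 genes are listed at 0 in it, and its total of 8254575 counts is that of a part of a library.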
